A study of Mus musculus with 10 samples.

Results

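H3K27me3 was compared over the autosomes between 10-day embryoid bodies (EBs) and undifferentiated cells of the mouse embryonic stem (ES) cell line E14. The members are windows (bins) of 10 kb on chromosomes 1 to 19 of the mm9 genome that held 20 or more reads in the 2 E14 libraries together. This rule kept 197994 of 247240 autosomal bins. The series holds 10 chromatin immunoprecipitation (ChIP-seq) libraries, with 1 library for each combination of line, condition and histone mark it covers. The E14 EB library came from cells grown without leukaemia inhibitory factor (LIF) for 10 days, and the E14 undifferentiated library from cells kept on gelatin in serum with LIF; both are of strain 129/Ola. The same 2 conditions of LF2 (129/Ola) and XT67E1 (C3H/Pgk*129) served only to read the E14 bins in other lines, and H3K4me3 was available from XT67E1. All H3K27me3 libraries used the same antibody. The series holds no input library, that is, none of chromatin without immunoprecipitation. As background, E14 is a male line, so no X inactivation takes place in it.

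H3K27me3 is trimethylation of lysine 27 of histone H3. Polycomb repressive complex 2 places it, through its EZH2 or EZH1 subunit, and demethylases of the KDM6 family remove it. In ES cells it lies over the promoters of many silent developmental regulators, the Hox clusters among them, often together with H3K4me3, the mark of active promoters. LIF keeps mouse ES cells undifferentiated. EBs are aggregates of ES cells grown without it, in which several early cell types arise side by side. A read count from such a mixture cannot tell more cells carrying the mark from more mark in each cell.

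Each E14 library held 4531733 reads as deposited, of which 97.5% in EBs and 97.4% in undifferentiated cells lay on autosomes. Both LF2 libraries held exactly the same number, and both XT67E1 H3K27me3 libraries held 8380007. The number of reads sequenced cannot be told from these files. The median tested bin held 17 reads in EBs and 18 in undifferentiated cells, so most single bins were thinly covered. With 1 library a side there is no replicate check and no p-value, and every interval covers counting error only. Counts were scaled to autosomal reads, and separately to the reads of the 118965 autosomal bins of low coverage, which held up to 31 reads. These bins held 1244936 reads in EBs and 1336760 in undifferentiated cells, and the second scaling therefore placed every E14 bin 0.11 (log2) higher. Loci are given by mm9 position, counted from 1, and without gene names, since gene positions of that build were not at hand.

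A bin was called gained or lost where the EB count was at least 2-fold above or below the undifferentiated count, with a pseudocount of 1 read, and the exact conditional binomial 95% interval of the ratio excluded 1. Scaled to autosomal reads, 4040 E14 bins (2.04% of those tested) were gained and 5827 (2.94%) were lost. Scaled to low-coverage bins, 6532 (3.3%) were gained and 3746 (1.89%) were lost, so which direction held more bins depended on the scaling. Under both scalings 4040 bins were gained and 3746 lost, and 96.1% of the bins were called in neither direction. At the edges of the rule, 5305 bins held exactly 20 reads and 4755 held 19 and were left out. Of the gained bins 773 had a log2 ratio under 1.1, while 3352 uncalled bins lay between 0.9 and the 2-fold limit.

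Most of these calls rested on few reads, since 65.3% of the gained and 80.8% of the lost bins held fewer than 50 reads. Exact 95% intervals may miss the true ratio in up to 9900 of 197994 bins, more than the 7786 called under both scalings. An interval of 99.99%, chosen after the data were seen, may miss it in up to 20. Under both scalings that interval left 520 gained bins (0.263%) and 282 lost bins (0.142%), and these 802 bins are described below unless the 95% interval is named. The 520 gained bins held a median of 83 reads in EBs and 29 in undifferentiated cells. Their median log2 ratio was 1.40, with quartiles of 1.18 and 1.72. The 282 lost bins held a median of 29 reads in EBs and 87.5 in undifferentiated cells, with a median log2 ratio of -1.57 and quartiles of -1.80 and -1.35. These values were chosen by the rule and describe it.

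**Figure D1:**
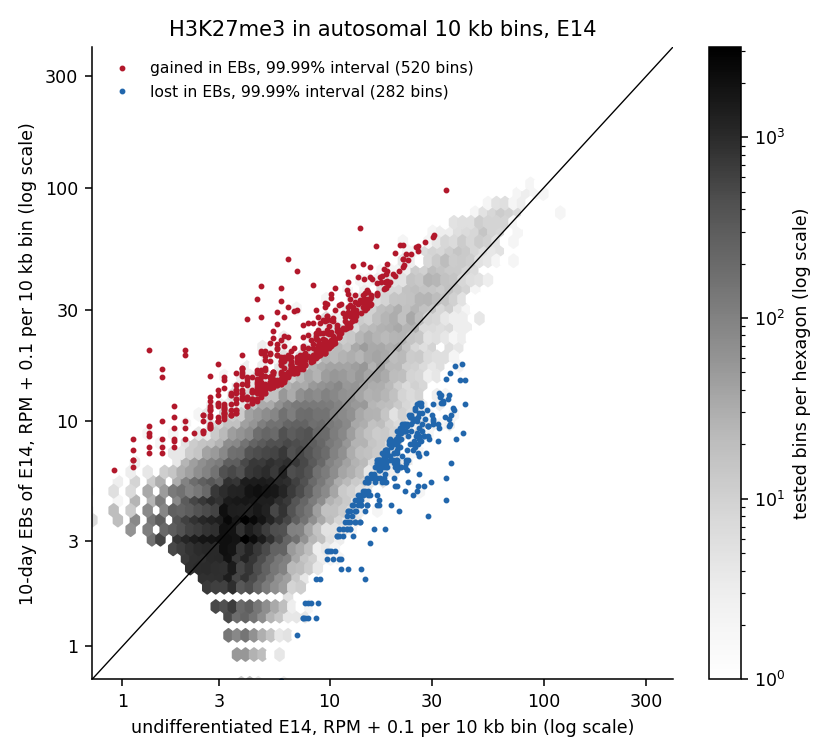
H3K27me3 reads per 1000000 autosomal reads (RPM) in E14 10 kb bins, EBs on the vertical and undifferentiated cells on the horizontal axis, both logarithmic after adding 0.1. Grey hexagons count all tested bins, red points are the 520 bins gained and blue points the 282 bins lost with a 99.99% interval, and the line marks equal RPM.

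The gained loci with the largest ratios, which the ratio itself picks for low undifferentiated counts, differed in how far the gain reached. The highest ratio among the 520 bins was at chr17:35640001-35650000, with 89 reads in EBs and 6 in undifferentiated cells (20.1 and 1.36 RPM), a log2 ratio of 3.68 with an interval of 2.71 to 5.37. The gain was narrow: the bin before it held 11 reads in EBs and 15 undifferentiated, and the bin after it 31 and 19. Its densest 1 kb step, from 35642001, held 21 reads in EBs and 4 in undifferentiated cells. At chr9:110840001-110850000 EBs held 74 reads and undifferentiated cells 7 (3.23, interval 2.29 to 4.76), and 1 step of 1 kb, from 110847001, held 28 reads in EBs and 0 in undifferentiated cells. Here the gain went on into the next bin, which held 47 reads in EBs and 12 in undifferentiated cells and was also gained, while the bin before it held 24 and 19.

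Some large gains lay beside chromatin that already carried the mark. At chr9:20820001-20830000 EBs held 89 reads and undifferentiated cells 9 (3.17, interval 2.31 to 4.48). The next bin held 188 reads in EBs and 81 in undifferentiated cells, so a marked stretch and a nearly unmarked one lay side by side before differentiation, and both were higher in EBs. At chr3:34550001-34560000, 165 reads in EBs stood against 26 in undifferentiated cells (2.62, interval 2.06 to 3.32). That bin belonged to a gained locus of 50 kb, chr3:34520001-34570000, with 605 reads in EBs and 195 in undifferentiated cells. Within that locus the bins before and after it held 162 and 183 reads in EBs, against 53 and 60 in undifferentiated cells.

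Chromosome 7 carried 4 of the 12 gained loci with the largest ratios. It held 48 of the 520 gained bins, 0.446% of its 10771 tested bins, against 0.263% of all tested bins. The bin at chr7:28110001-28120000 held 220 reads in EBs, the most among the 12, and 28 in undifferentiated cells (2.93, interval 2.40 to 3.59). The bin at chr7:114350001-114360000 held 168 reads in EBs and 21 in undifferentiated cells (2.94, interval 2.34 to 3.73), and that at chr7:152040001-152050000 held 195 and 31 (2.61, interval 2.10 to 3.25). At chr7:147130001-147140000 the counts were 121 in EBs and 18 in undifferentiated cells (2.68, interval 2.03 to 3.55). In the last of these the bin before it, with 78 reads in EBs and 13 undifferentiated, was gained as well. Over the 12 loci the best bin held 51 to 220 reads in EBs and 6 to 31 in undifferentiated cells, with no overlap of the 2 ranges, which the rule itself fixes.

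The other 4 of these loci were single bins or pairs of bins. They were chr4:129050001-129060000 with 85 reads in EBs and 9 in undifferentiated cells, chr14:26660001-26670000 with 68 and 7, and chr17:44240001-44250000 with 51 and 8. The fourth was chr6:51950001-51960000 with 147 reads in EBs and 20 in undifferentiated cells, whose next bin, with 32 and 9 reads, was also gained.

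**Figure D2:**
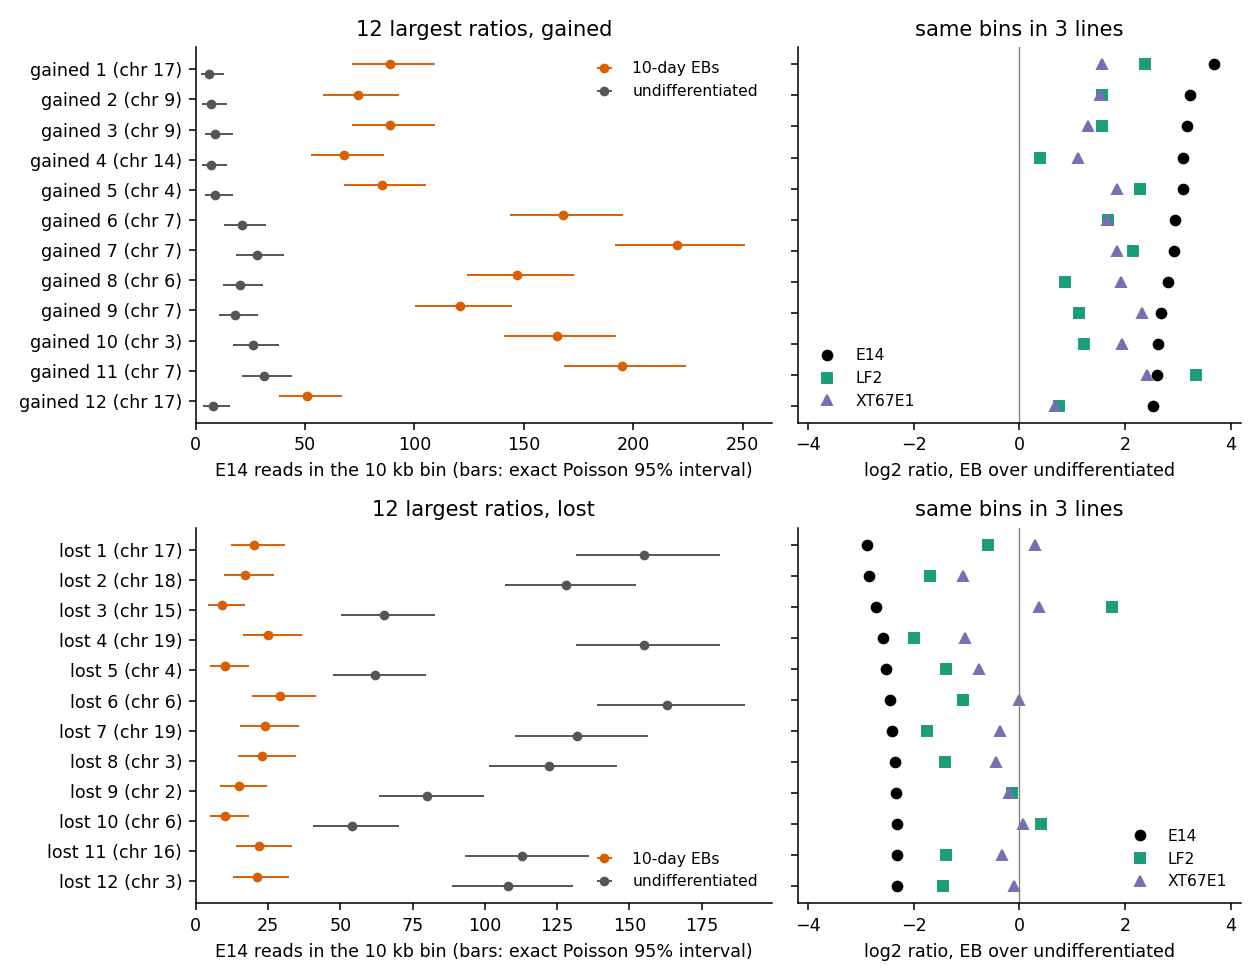
Left, E14 reads in the best 10 kb bin of the 12 gained (top) and 12 lost (bottom) loci with the largest ratios, EBs in orange and undifferentiated cells in grey, with exact Poisson 95% intervals; right, the log2 ratio of EBs over undifferentiated cells in the same bins in E14, LF2 and XT67E1. All 12 gained bins lie above 0 in the 3 lines, while 10 of the 12 lost bins lie below 0 in LF2 and 9 in XT67E1.

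Among lost loci whose best bin held 50 or more reads, the lowest ratio was at chr17:46160001-46170000, with 20 reads in EBs and 155 in undifferentiated cells (4.52 and 35.1 RPM), a log2 ratio of -2.90 with an interval of -3.71 to -2.28. One step of 1 kb, from 46168001, held 3 of the EB reads and 62 of the undifferentiated reads. The bins on its sides held 16 and 26 reads in EBs and 24 and 50 in undifferentiated cells, so the loss was much smaller outside it. At chr19:30100001-30110000 EBs held 25 reads and undifferentiated cells 155 (-2.59, interval -3.31 to -2.02), and all 10 steps of 1 kb were lower in EBs. At chr6:99470001-99480000 the counts were 29 in EBs and 163 in undifferentiated cells (-2.45, interval -3.12 to -1.92), with 5 and 60 of them in 1 step of 1 kb.

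The other read-rich losses were single bins or parts of loci of up to 50 kb. The bin at chr18:83080001-83090000 held 17 reads in EBs and 128 in undifferentiated cells (-2.84, interval -3.74 to -2.18), within a lost locus of 40 kb with 41 and 221 reads. At chr19:53380001-53390000 the counts were 24 in EBs and 132 in undifferentiated cells, and at chr3:51900001-51910000 they were 23 and 122. At chr16:22160001-22170000 EBs held 22 reads and undifferentiated cells 113, and at chr3:9250001-9260000 they held 21 and 108. Over the 12 lost loci the best bin held 9 to 29 reads in EBs and 54 to 163 in undifferentiated cells.

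The remaining 4 of the 12 had fewer reads. These were chr15:19640001-19650000 with 9 reads in EBs and 65 in undifferentiated cells, chr4:151360001-151370000 with 10 and 62, chr2:116370001-116380000 with 15 and 80, and chr6:134870001-134880000 with 10 and 54. Their counting intervals were wider, for example -4.05 to -1.84 for the bin on chromosome 15. A bin with fewer than 50 reads, which the rule for naming left out, reached a log2 ratio of -3.33.

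**Figure D3:**
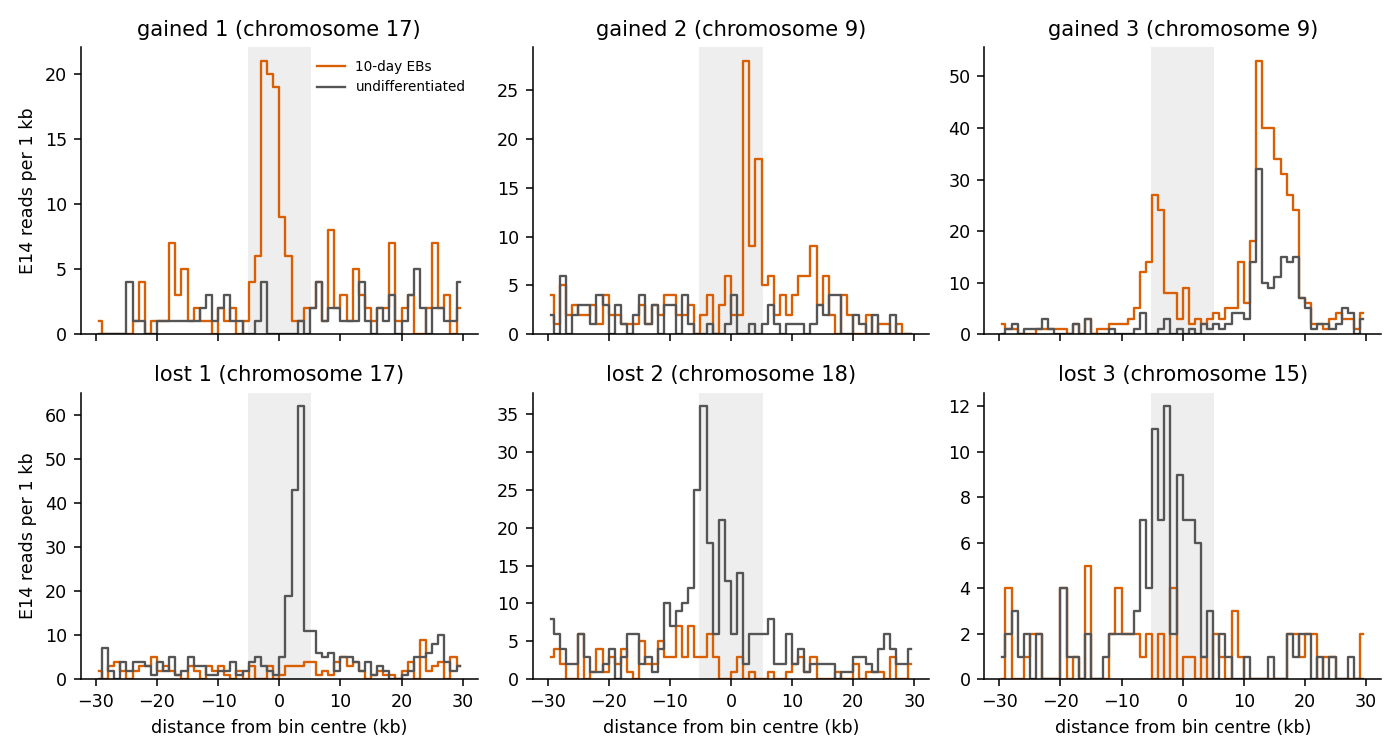
E14 reads per 1 kb step within 30 kb of the centre of the 3 gained (top) and 3 lost (bottom) bins with the largest ratios, EBs in orange and undifferentiated cells in grey; the shaded band is the called 10 kb bin. The tallest step is 28 reads, in EBs, inside the second gained bin and 62 reads, in undifferentiated cells, inside the first lost bin, and the marked stretch beside the third gained bin reaches 53 reads in EBs and 32 in undifferentiated cells.

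Wide gained or lost loci were few. With the 95% interval, called bins with at most 1 uncalled bin between them formed 3588 gained and 3438 lost loci, of which 90.5% and 92.6% were single bins. Loci of 50 kb or more numbered 21 among gains and 13 among losses. The widest gain was chr11:68020001-68130000, 110 kb with 10 called bins, where EBs held 673 reads and undifferentiated cells 233 (log2 1.53, interval 1.31 to 1.75). The widest loss was chr7:69590001-69660000, 70 kb with 5 called bins, where EBs held 161 reads and undifferentiated cells 501 (log2 -1.64, interval -1.91 to -1.38). The gain with the largest difference in reads was chr1:91810001-91860000, already marked before differentiation, with 978 reads in EBs and 388 in undifferentiated cells. Other wide or read-rich gains were chr7:28140001-28190000 (532 reads in EBs, 166 undifferentiated) and chr13:83850001-83880000 (681 and 323). Other losses of this kind were chr14:58310001-58370000 (158 reads in EBs, 427 undifferentiated), chr11:94850001-94890000 (177 and 450), chr14:26260001-26290000 (120 and 368) and chr15:93340001-93370000 (106 and 345). The other wide gains reached log2 ratios of 0.92 to 1.29. They were chr11:12100001-12190000 (316 reads in EBs, 153 undifferentiated), chr19:10330001-10410000 (610 and 321), chr17:14530001-14610000 (370 and 151) and chr2:152930001-153000000 (370 and 180). The other wide losses, at -1.42 to -0.97, were chr7:106530001-106590000 (134 reads in EBs, 340 undifferentiated), chr18:10500001-10560000 (65 and 173) and chr18:56540001-56600000 (80 and 156). No bin of chr11:12100001-12190000 or chr18:56540001-56600000 passed the 99.99% interval.

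Differences spread beyond the called bins. Bins next to a gained bin had a median log2 ratio of 0.59, and those 20 kb, 50 kb and 100 kb away had medians of 0.39, 0.23 and 0.13. Next to a lost bin the median was -0.57, with -0.33, -0.19 and -0.08 at the same distances. At 200 kb the medians were 0.09 around gains and -0.07 around losses, against -0.0028 over all tested bins. These medians include bins that were themselves called in the same direction, 14.7% of those next to a gained bin, against 0.263% of all tested bins, and 10.4% of those next to a lost bin, against 0.142%.

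**Figure D4:**
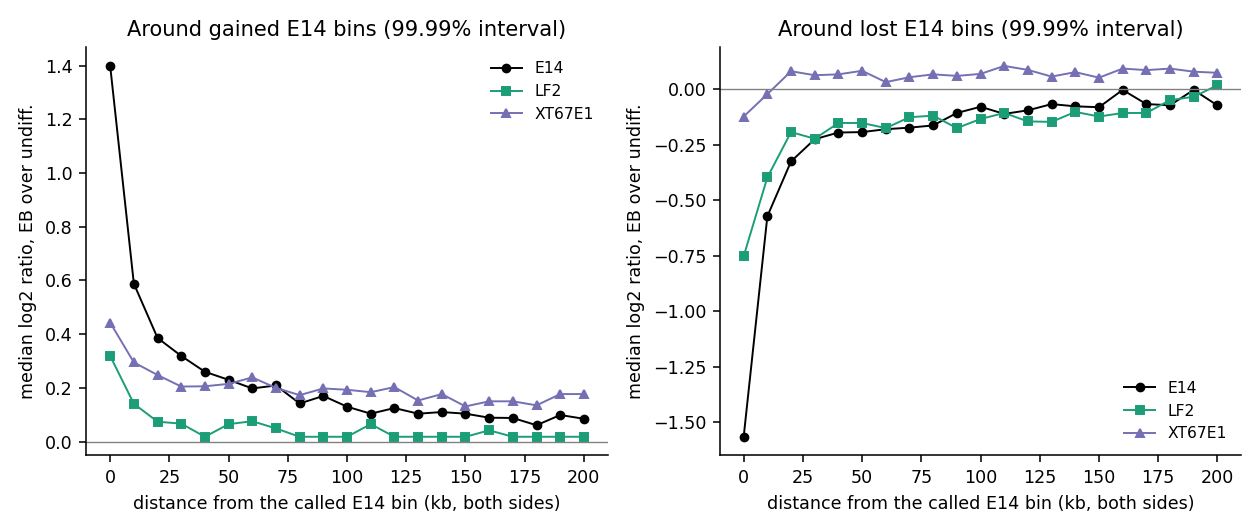
Median log2 ratio of EBs over undifferentiated cells in E14, LF2 and XT67E1 by distance in kb from the E14 bins called with a 99.99% interval, gained bins left and lost bins right, both sides pooled. The value at 0 kb in E14 (1.40 and -1.57) is set by the call; at 10 kb E14 stands at 0.59 and -0.57.

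The E14 gains were found in part in both other lines, which had no role in choosing them. Here and below, calls in those lines used the 95% interval and autosomal scaling alone, unless another scaling is named. This is a looser rule than the one that chose the 520 E14 bins. Of the 520 gained bins 99 (19.04%) were also gained in LF2 EBs and 2 were lost, where 3.9% of all bins tested in both lines were gained and 2.52% lost. In XT67E1 107 (20.6%) were gained and 0 lost, against 2.07% and 0.698% over all bins. Over bins with 100 or more E14 reads the shares gained were 1.6% in LF2, below its share over all bins, and 3.45% in XT67E1, above it. The median log2 ratio of the 520 bins was 0.32 in LF2 and 0.44 in XT67E1. Of the 520 bins 58 (11.2%) were gained in both other lines, against 0.202% of all bins, and 372 (71.5%) were gained in neither. Taken the other way, the 99 bins were 1.47% of those gained in LF2 and the 107 were 2.62% of those gained in XT67E1.

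The E14 losses were called in LF2 at a share of 33.1% and in XT67E1 at 2.48%, again with the 95% interval in those lines. Of 281 lost bins with enough reads in LF2, 93 (33.1%) were also lost there and 5 were gained, against 2.52% lost and 3.9% gained over all bins and 6.31% lost over bins with 100 or more E14 reads. In XT67E1 7 of 282 (2.48%) were lost and 2 gained, against 0.698% lost over all bins and 0.159% over bins with 100 or more E14 reads. The medians were -0.75 in LF2 and -0.12 in XT67E1. With each line scaled to its own low-coverage bins, LF2 had 1.61% of all bins gained and 6.11% lost, and XT67E1 1.3% and 1.39%. E14 and LF2 share a strain label and a read number, and XT67E1 differs in both; the part of either in this pattern was not tested, nor was the difference between lines.

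Single loci show both patterns. At chr17:35640001-35650000, the top gain, LF2 held 30 reads in EBs and 5 in undifferentiated cells, and XT67E1 held 37 and 12. At chr7:152040001-152050000 LF2 held 79 and 7 and XT67E1 84 and 15, and both were called. At chr1:91820001-91830000 E14 held 432 reads in EBs and 155 in undifferentiated cells and XT67E1 300 and 73, whereas LF2 held 195 and 220. Among losses, chr18:83080001-83090000 was called in each line, with 30 and 100 reads in LF2 and 65 and 139 in XT67E1. The top loss, chr17:46160001-46170000, was called in E14 alone: LF2 held 14 reads in EBs and 22 in undifferentiated cells, and XT67E1 32 and 26. The wide loss on chromosome 7 from 69590001 had 160 reads in EBs and 151 in undifferentiated cells in LF2, and 349 and 357 in XT67E1.

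H3K4me3, read in XT67E1 and not in E14, was called in the opposite direction at a share of these positions. Of 399 gained bins with 20 or more H3K4me3 reads, 68 (17.0%) were lower and 7 (1.75%) higher in XT67E1 EBs. These H3K4me3 calls also used the 95% interval and autosomal scaling alone. Over all bins with enough reads 3.1% were lower and 2.6% higher, and over those with 100 or more E14 H3K27me3 reads 4.33% and 4.77%. Of 219 lost bins 22 (10.0%) were higher in H3K4me3 and 1 (0.457%) was lower. The median H3K4me3 log2 ratio was -0.22 at gained and 0.32 at lost bins, against 0.00 over all bins. Among the 12 largest gains 7 were lower in H3K4me3, among them chr17:35640001-35650000 with 103 reads in EBs and 304 in undifferentiated cells. The gains chr14:26660001-26670000 (42 reads in EBs, 43 undifferentiated) and chr6:51950001-51960000 (18 and 19) had no such difference. Among the 12 largest losses 3 were higher, such as chr6:99470001-99480000 with 49 H3K4me3 reads in EBs and 11 in undifferentiated cells.

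Bins rich in H3K4me3 in undifferentiated XT67E1 were called more often in E14 in both directions. With 100 or more H3K4me3 reads, 2.53% of 1066 bins were gained and 0.375% lost. With 50 to 99 reads, 1.84% of 3431 bins were gained and 1.02% lost. With 20 to 49 reads, 1.59% of 6922 bins were gained and 1.17% lost. With 4 or fewer, 0.0395% of 40517 bins were gained and 0.0296% lost. The median E14 log2 ratio of the richest class was -0.20, below the -0.0028 of all bins, although its share of gained bins was the highest of the classes.

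Bins that carried most H3K27me3 in undifferentiated XT67E1 were slightly higher in E14 EBs as a whole. Ranked by reads in undifferentiated XT67E1, which took no part in the E14 call, the top 1.0% (1980 bins) held 278512 E14 reads in EBs and 248277 in undifferentiated cells, a density ratio of 1.12. The lowest class, 17396 bins, held 223243 and 239441, a ratio of 0.931, and the classes between them followed this order. LF2 ran the other way, with 0.776 in the top class and 1.22 in the lowest. In the top class 2.07% of bins were gained and 2.42% lost in E14, above the 0.263% and 0.142% over all bins. Such calls were rare in bins with few reads. Of bins with 20 to 29 E14 reads 0.0% were gained and 0.0105% lost, and of those with 100 or more 5.57% and 3.3%. Both shares of the top class lay below those of bins with 100 or more E14 reads. The part of read depth in its excess over all bins was not tested.

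The richest loci of undifferentiated XT67E1 were mostly within 2-fold in E14. The ranking used XT67E1 reads, from a library of 8380007 reads against 4531733 in E14, and not every such locus was rich in E14. Many of the loci lay on chromosome 8, which held 10583 of the 197994 tested bins. Whether XT67E1 holds more chromosome 8 reads for a reason other than the mark was not tested. At chr8:123410001-123420000 undifferentiated XT67E1 held 242 reads and undifferentiated E14 58. At chr8:111310001-111320000 they held 244 and 100. On another chromosome, at chr10:57680001-57690000, they held 240 and 68. From the 200 richest bins, joined as above, 141 loci were formed, of which 62 had an interval above 1 and 17 below it. At chr6:52110001-52220000, the widest, E14 held 3848 reads in EBs and 2924 in undifferentiated cells, a ratio of 1.31 (log2 interval 0.32 to 0.46). Next by width were chr11:96130001-96210000 with 2590 reads in EBs and 2160 in undifferentiated cells, and chr11:3030001-3100000 with 2250 and 3234. After them came chr2:74490001-74550000 with 2072 and 1704, and chr15:102780001-102830000 with 1619 and 1357. The ratios of these 4 were 1.2, 0.694, 1.21 and 1.19. Only chr11:3030001-3100000 among them was lower in EBs. It held 8597 reads in undifferentiated XT67E1, against 2986 at the widest locus. Without an input library, a pile-up of reads unrelated to the mark cannot be told from the mark at such loci. The highest ratio was at chr15:102740001-102750000, with 272 reads in EBs and 134 in undifferentiated cells (2.03, gained with the 95% interval), and the 40 kb locus chr8:87290001-87330000 held 1176 and 762 (1.54). The lowest ratios were at chr8:28080001-28100000, with 113 reads in EBs and 294 in undifferentiated cells (0.384, both bins lost with the 95% interval), chr8:111310001-111320000 with 43 and 100 (0.429, also lost) and chr14:22800001-22810000 with 152 and 313 (0.485, not called under both scalings). The locus chr9:3000001-3040000, with 1414 and 1856 reads, was also below 1 (0.760). The single bin chr17:39980001-39990000 held 2763 reads in EBs and 1436 in undifferentiated cells (1.92, not called). It was higher in EBs of the other lines too, with 2172 and 686 reads in LF2 and 3381 and 1188 in XT67E1. The same limit applies to both of these loci.

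Gains and losses lay on every autosome. Chromosome 11 had the highest share of gained bins with the 95% interval, 3.04% of 10741, and the lowest share of lost ones, 1.54%. The ratio of its read density, EBs over undifferentiated cells, was 1.08 (interval 1.07 to 1.08), against 0.965 to 1.03 for the other autosomes. In the other lines chromosome 11 stood at 0.961 (LF2) and 1.03 (XT67E1). Chromosome 10 had the lowest density ratio, 0.965 (interval 0.959 to 0.970), with 1.61% gained and 2.28% lost, and stood at 0.961 in LF2 and 0.969 in XT67E1. With the 99.99% interval, chromosome 8 held the most gained bins, 51 (0.482%), followed by chromosome 4 with 49, and chromosome 2 the most lost bins, 31 (0.203%). The density ratio of chromosome 8 was 1.02 in E14, 1.13 in LF2 (interval 1.12 to 1.13) and 0.989 in XT67E1. A whole-chromosome shift changes every bin on it. Its part in the E14 calls on chromosome 11, and in the LF2 calls on chromosome 8, was not tested.

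**Figure D5:**
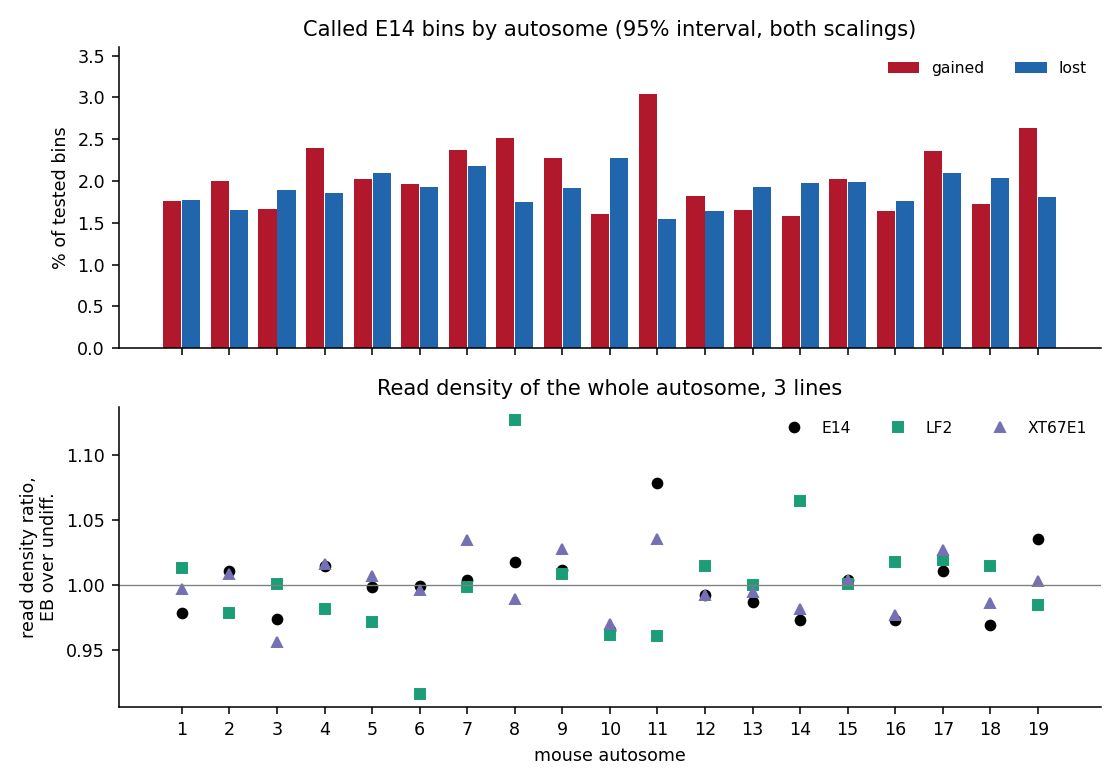
Top, percent of tested E14 bins on each autosome that were gained (red) or lost (blue) under both scalings with a 95% interval; bottom, read density of each whole autosome in EBs over undifferentiated cells in E14, LF2 and XT67E1. Chromosome 11 stands highest in E14 at 1.08, with 3.04% of its bins gained and 1.54% lost.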

How the data were processed

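The authors deposited, for each library, a list of read positions as intervals of 200 bp without strand or value, on mm9 per the submitters' processing notes; no interval occurred more than once in a file. The aligner, read filters and extension are not stated in any source used. Per the labels, chromatin was sheared to 200 to 700 bp. Samples were grouped by title. Interval midpoints were counted in bins of 10 kb, and ratios, exact conditional binomial intervals and calls were computed with numpy 2.4.6, pandas 2.3.3 and scipy 1.17.1 in Python 3.11.15; the calls were checked on simulated counts. Other lines were scaled to their own autosomal reads. The 2 atRA libraries and the X chromosome were not analysed here. Named loci are, per direction, the 12 largest ratios among loci whose best bin held 50 or more reads, the 5 widest and the 5 with the largest difference in reads. The bins, rules and alternatives were chosen with earlier results of these data known. The planned gene lists could not be placed, since the annotation at hand is of another build.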

Additional observations from a re-analysis of the deposited data

Results flagged for a closer look

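The bin at chr15:19640001-19650000 moved in opposite directions in 2 lines. In E14 it was lost, with 9 reads in EBs and 65 in undifferentiated cells (log2 ratio -2.73, interval -4.05 to -1.84), while in LF2 it was gained, with 19 and 5 reads (1.75). XT67E1 held 48 reads in EBs and 37 in undifferentiated cells. With 1 library per line and condition the difference between lines was not tested.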

How the results depend on the processing

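The counts of called bins followed the settings. Against 4040 gained and 5827 lost bins with autosomal scaling, low-coverage scaling gave 6532 and 3746, a minimum of 50 reads 1400 and 1084, a pseudocount of 5 reads 2032 and 3544, bins of 20 kb 935 and 2106, 3-fold 441 and 1037, and the 99.99% interval, added after seeing the data, 520 and 416; 1.5-fold gave 7397 gained. Median-of-ratios scaling, no read minimum, bins of 5 kb and a grid moved by 5 kb kept both counts within 1.5 times. The median log2 ratio, -0.0028, became 0.1027, 0.0, 0.0923 and -0.0447 under low-coverage and median-of-ratios scaling, 50 reads and 20 kb bins. Low-coverage scaling gave 5604 gained loci, and the 99.99% interval 430 gained and 244 lost ones, against 3588 and 3438.

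The shares of E14 bins called alike elsewhere moved too, where the 99.99% interval was applied to the E14 bins only. Gained in LF2 were 8.22% of E14 gains with the 95% interval, 7.3% with low-coverage scaling, 10.2% in 20 kb bins, 19.04% with the 99.99% interval and 4.28% with LF2 scaled to its low-coverage bins, where 1.61% of all bins were gained. In XT67E1 these were 5.85%, 4.6%, 7.81%, 20.6% and 4.54% (1.3% of all bins), and 7.89% in 5 kb bins. Lost in LF2 were 8.78% of E14 losses, 6.69% with no read minimum, 21.9% in 5 kb and 5.75% in 20 kb bins, 33.1% with the 99.99% interval and 15.6% with LF2 scaled to its low-coverage bins (6.11% of all bins). In XT67E1 these were 0.856%, and 2.85%, 0.409%, 2.48% and 1.66% (1.39% of all bins) for the last 4 settings. The causes were not tested. Of the 40 named bins none reversed; 10 left their interval when the grid moved by 5 kb. No paired analysis was possible because each group has 1 library.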

Other observations

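Counted in windows of 1 Mb, calls were uneven along the autosomes. Of 2286 windows with 50 or more tested bins, the E14 read density ratio of EBs over undifferentiated cells had a median of 0.979 and a range of 0.651 to 1.45, and the median window held 1 gained and 1 lost bin with the 95% interval. The window with most gained bins, on chromosome 11 from 68000001, held 16 gained and 0 lost bins, with 3788 reads in EBs and 2833 in undifferentiated cells; its ratio was 1.33 in E14, 0.962 in LF2 and 1.12 in XT67E1. The highest ratio, 1.45, was on chromosome 3 from 96000001, with 2920 reads in EBs and 2008 in undifferentiated cells, against 1.08 in LF2 and 1.2 in XT67E1. The window with most lost bins, on chromosome 7 from 69000001, held 12 lost bins and 1 gained, with 1326 reads in EBs and 2034 in undifferentiated cells, a ratio of 0.651 in E14, against 1.15 in LF2 and 0.963 in XT67E1. On chromosome 3 from 51000001 the ratio was below 1 in the 3 lines, at 0.700 in E14, 0.750 in LF2 and 0.840 in XT67E1, with 11 lost and 0 gained bins in E14.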
